A study of Homo sapiens with 8 samples.

Results

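The keratins described here are 10 of the 61806 genes in the count table of this series. They are the basal keratins KRT5, KRT14 and KRT15, the activation-associated keratins KRT6A, KRT6B, KRT16 and KRT17, and the simple epithelial keratins KRT8, KRT18 and KRT19, and each was found by its symbol. The series holds mRNA libraries of N/TERT-1 cells, a line of human epidermal keratinocytes immortalized with telomerase, without any edited gene in the libraries analysed here. The 4 control libraries came from cells given the solvent ethanol. The other 4 came from cells given O/A, the combination of oligomycin, an inhibitor of mitochondrial ATP synthase, and antimycin A, an inhibitor of respiratory complex III. The labels give neither dose nor time, and the study's text gives oligomycin at 10 µM with antimycin A at 4 µM for 4 h. Both conditions were grown in keratinocyte serum-free medium supplemented with calcium chloride, recombinant EGF and bovine pituitary extract. The cells are 1 immortalized line in submerged culture, so the upper layers of an epidermis are not modelled. In the study the comparison served to examine genes of cholesterol synthesis and uptake. Here its keratin rows show how the main cytoskeletal genes of this cell type differ between the conditions.

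Keratins are intermediate filament proteins that assemble only as pairs of a type I and a type II chain. KRT5 pairs with KRT14 or KRT15 in the basal layer, KRT6A and KRT6B pair with KRT16 or KRT17 in follicles, in wounds and in cultured keratinocytes, and KRT8 pairs with KRT18 or KRT19 in simple epithelia. The type II genes of the set (KRT5, KRT6A, KRT6B and KRT8) lie in the keratin cluster of chromosome 12 and the type I genes in that of chromosome 17, except KRT18, which lies beside KRT8.

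In O/A-treated cells KRT16 rose, KRT5 and KRT15 fell, and the other tested keratins differed by less than the fold change threshold. KRT16 was 32.3 ± 2.18 FPKM in ethanol against 41.2 ± 3.6 FPKM in O/A (SD, n = 4 each), where FPKM is a gene's fragment count scaled to its exonic length and to the library total. KRT5 was 1433 ± 42.9 FPKM in ethanol against 1128 ± 37.8 FPKM in O/A. KRT17, the partner of KRT6A, was 1294 ± 36.4 and 1243 ± 44.7 FPKM. The type II keratins together made up a smaller share of all counts in every O/A library than in any ethanol library, and the type I share overlapped between the conditions.

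Library totals ran from 17210404 to 20999927 counts among the 4 controls and from 17689760 to 19263046 among the 4 treated samples. Counts were compared with edgeR's quasi-likelihood test, and a gene was called when its Benjamini-Hochberg adjusted p over all 14893 tested genes was at most 0.05 and its absolute log2 fold change was above 0.25. By this rule 5165 genes were called (34.7% of those tested), 2350 of them upregulated (15.8%) and 2815 downregulated (18.9%). With the adjusted p alone, 53.7% of the tested genes passed, and in 47.6% the scaled values of the conditions did not overlap. The labelled cell type was checked with 11 keratinocyte markers, all of which had a mean of at least 1 FPKM, and their sum was 2303 to 2376 FPKM in ethanol against 2304 to 2379 FPKM in O/A. Within that sum DSG3 rose (52.8 and 101.8 FPKM) and SFN fell (738 and 590 FPKM). Defining markers of fibroblasts (1 of 7 at 1 FPKM or more), melanocytes (0 of 6), endothelial cells (0 of 4) and immune cells (0 of 5) were low or at 0 in both conditions. The immune sum was 0.46 to 0.62 FPKM in ethanol, and 0.65 to 0.88 FPKM in O/A, where CD68 rose at 15 to 33 counts per library (log2 fold change 0.56, edgeR adjusted p = 0.035), and its part in the keratin values was not tested. DSG3 and CD68 are named after their values were seen. In mRNA from whole cultures, a lower level in each cell and fewer cells with a high level cannot be told apart.

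Some keratins are near copies of each other, which bears on how reads are assigned, so the stretches where they differ most are shown. Each stretch is the window of 60 coding bases within 1 exon that holds the most differing positions, read from GRCh38 on the minus strand and written 5′ to 3′, with every position that differs among the genes shown in capitals. KRT6C, a near copy that is not among the 10 keratins, is shown because it lies between KRT6A and KRT6B. The KRT6 stretches cover coding positions 663 to 722 and differ at 9 positions.
KRT6A (chr12:52491555-52491614): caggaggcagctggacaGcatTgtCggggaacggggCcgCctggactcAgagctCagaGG
KRT6B (chr12:52450439-52450498): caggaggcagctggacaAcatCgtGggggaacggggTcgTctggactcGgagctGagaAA
KRT6C (chr12:52472099-52472158): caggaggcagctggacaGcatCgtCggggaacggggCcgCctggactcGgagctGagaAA

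The type I keratins KRT14, KRT16 and KRT17 are less alike, and their matching stretches differ at 25 of 60 positions. They begin at coding position 459 in KRT14, 465 in KRT16 and 366 in KRT17.
KRT14 (chr17:41586317-41586376): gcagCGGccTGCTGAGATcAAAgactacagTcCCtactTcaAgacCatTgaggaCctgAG
KRT16 (chr17:41612165-41612224): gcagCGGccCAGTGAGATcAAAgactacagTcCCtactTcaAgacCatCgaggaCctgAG
KRT17 (chr17:41624085-41624144): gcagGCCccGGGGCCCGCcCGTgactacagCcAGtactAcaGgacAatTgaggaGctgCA

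Over the whole coding sequence KRT6A and KRT6B shared 97.5% of bases and differed at 42 of 1692 positions. KRT16 shared 88.7% with KRT14 and 80.9% with KRT17, and KRT14 shared 85.2% with KRT17. KRT5 and KRT6A, which are both type II, shared 83.2%. To see how often a read could belong to more than 1 gene, each stretch of 150 bases (the read length) of a gene's canonical transcript was looked up in the transcripts of all other genes. It was found elsewhere for 200 of 2159 stretches of KRT6A (9.26%) and 273 of 2153 of KRT6B (12.7%), so the counts of KRT6A, KRT6B and KRT6C carry that uncertainty. Whether reads that match more than 1 gene were split or left out is not given in the sources used here. For KRT14 the share was 0.605% and for KRT16 0.729%, and no such stretch was found for KRT5, KRT15, KRT17, KRT8 or KRT19. For KRT18 it was 155 of 1264 stretches (12.3%), all in transcripts of KRT8, whose gene record runs into KRT18 on the opposite strand (chr12:52948871-52949954, 1084 bases). Whether the counting used strand is not given in the sources used here, so reads from those 1084 bases cannot be assigned to KRT8 or KRT18 with certainty. The canonical KRT8 transcript (chr12:52897191-52905076) lies outside them.

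The 10 keratins covered a range from the most abundant mRNAs of the cell to near absence. By mean FPKM over the 8 libraries KRT6A ranked 14 among all genes, KRT5 ranked 16, KRT17 ranked 17 and KRT14 ranked 21. KRT18 ranked 153, KRT6B 295, KRT8 298, KRT15 506, KRT16 1068 and KRT19 16038. In ethanol the order of the deposited FPKM was KRT6A, KRT5, KRT17, KRT14, KRT18, KRT6B, KRT8, KRT15, KRT16 and KRT19. Within that order the libraries' ranges overlapped for KRT6A and KRT5 and for KRT6B and KRT8, and for no other neighbours. Even so, KRT6A was higher than KRT5, and KRT6B higher than KRT8, in 4 of 4 ethanol libraries. In O/A KRT17 stood above KRT5 and KRT8 above KRT6B, and the ranges overlapped for KRT6A and KRT17, where KRT6A was higher in 3 of 4 libraries, and for KRT8 and KRT6B, where KRT8 was higher in 2 of 4.

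The deposited FPKM divides by all exonic bases of a gene record, which is far more than 1 transcript for some keratins. For KRT8 these are 6881 bases against 1784 in the canonical transcript, for KRT15 5969 against 1712, and for KRT6B 2302 in both. Per kilobase of the canonical transcript, a scale added after the data were seen, the ethanol means were 2646 for KRT5, 2556 for KRT17, 1914 for KRT6A and 1468 for KRT14. On this scale KRT5 and KRT17 overlapped in ethanol, with KRT5 higher in 4 of 4 libraries. KRT8 (408.1) stood above KRT18 (374.0), which is the reverse of the order on the deposited scale. KRT15 followed at 251.3, ahead of KRT6B at 109.7, KRT16 at 48.31 and KRT19 at 0.384. In O/A on the same scale KRT17 (2454) stood above KRT5 (2084) without overlap. There KRT18 (380.7) and KRT8 (369.2) overlapped, with KRT18 higher in 4 of 4 libraries. Thus the order of levels between keratins depends on the length used, while comparisons of 1 gene between conditions do not.

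Among the basal keratins KRT5 and KRT15 fell, and KRT14 did not pass the threshold. KRT5 (chr12:52514575-52520530, 9 exons in the canonical transcript), the type II keratin of basal cells, was 1428, 1412, 1495 and 1397 FPKM in ethanol replicates 1 to 4 against 1177, 1140, 1103 and 1094 FPKM in O/A. Every O/A library lay below every ethanol library. The log2 fold change was −0.30 (SE 0.025, edgeR adjusted p = 9.47e-15), and it remained between −0.31 and −0.27 when each library was left out in turn. Under quantile normalization it was −0.20, which is inside the threshold.

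KRT14 (chr17:41582279-41586895), the main type I partner of KRT5, was 1031, 1059, 1167 and 1003 FPKM in ethanol against 996.8, 981, 956.2 and 932.0 FPKM in O/A. The FPKM ranges did not touch, but after scaling of the libraries by TMM (trimmed mean of M-values) they overlapped. Its log2 fold change was −0.09 (SE 0.037, edgeR adjusted p = 0.0442), below the fold change threshold. Ethanol replicate 3 is the highest library, and without it the log2 fold change was −0.04 with an edgeR adjusted p of 0.198. The edgeR adjusted p was also above 0.05 without ethanol replicate 2 or O/A replicate 2, 3 or 4 (0.0778 to 0.12), under median-ratio scaling (0.0505) and among protein-coding genes alone (0.0727).

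KRT15 (chr17:41513745-41522529), a type I keratin of basal cells and of the follicle bulge, was 70.7, 66.2, 78.8 and 72.5 FPKM in ethanol against 61.5, 62.2, 56.3 and 53.0 FPKM in O/A. The conditions did not overlap, with the highest O/A library just under the lowest ethanol library. The log2 fold change was −0.26 (SE 0.071, edgeR adjusted p = 0.0187), close to the threshold. The call was lost without ethanol replicate 3 (−0.21), ethanol replicate 4 (−0.25, edgeR adjusted p = 0.0501), O/A replicate 3 (−0.24, edgeR adjusted p = 0.0516) or O/A replicate 4 (−0.22), and among protein-coding genes alone (−0.25). KRT15 is therefore the least stable of the 3 keratin calls.

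Of the activation-associated keratins, KRT16 rose while its possible type II partners KRT6A and KRT6B were lower in O/A by less than the threshold. KRT16 (chr17:41609778-41615899), a type I keratin induced in wounded and hyperproliferative epidermis, was 35.0, 30.5, 33.3 and 30.6 FPKM in ethanol against 44.7, 43.5, 39.6 and 36.9 FPKM in O/A. All 4 O/A libraries lay above all 4 ethanol libraries. The log2 fold change was 0.39 (SE 0.069, edgeR adjusted p = 0.000908), and the call held in all alternatives run for KRT16, from 0.34 to 0.44. Rows of KRT16 pseudogenes held 4.06% of the KRT16 counts, nearly all of them in KRT16P6 (37 to 89 counts per library). KRT16P6 had a log2 fold change of 0.72 (edgeR adjusted p = 6.24e-05), and with the pseudogene reads added to KRT16 its log2 fold change was 0.41 (edgeR adjusted p = 0.000152).

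KRT6A (chr12:52487176-52493257), the most abundant keratin of these cells by FPKM, was 1507, 1530, 1520 and 1483 FPKM in ethanol against 1305, 1287, 1266 and 1316 FPKM in O/A. The conditions did not overlap, and the spread within each was small. Its log2 fold change was −0.18 (SE 0.024, edgeR adjusted p = 6.40e-09), short of the threshold, and −0.06 (limma adjusted p = 0.301) under quantile normalization. KRT6B (chr12:52446651-52452146), its near copy, ranged from 106.0 to 113.9 FPKM in ethanol, and from 85.8 to 97.3 FPKM in O/A. The KRT6B log2 fold change was −0.19 (SE 0.033, edgeR adjusted p = 1.11e-05), and it passed the threshold only under quantile normalization (−0.27). Both copies thus gave close values, and the counts of KRT6A, KRT6B and KRT6C summed gave −0.18 (edgeR adjusted p = 5.24e-09). This sum does not depend on how counted reads were split, but it would miss any reads left out as shared. KRT6C, named after its values were seen, had 24 to 47 counts per library and a log2 fold change of 0.02, with a sign that turned between alternatives.

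KRT17 (chr17:41619442-41624842), a type I keratin of follicles and of activated keratinocytes, was 1268, 1306, 1340 and 1262 FPKM in ethanol against 1309, 1211, 1225 and 1226 FPKM in O/A. The conditions overlapped, with O/A replicate 1 among the ethanol values. Its log2 fold change was −0.01 (SE 0.025, edgeR adjusted p = 0.705), and its sign turned to 0.01 without ethanol replicate 3 or O/A replicate 2.

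None of the simple epithelial keratins passed the threshold. KRT8 (chr12:52897187-52949954), the type II member, was 106.6, 108.5, 105.5 and 102.6 FPKM in ethanol against 97.0, 93.3, 94.6 and 98.0 FPKM in O/A. The conditions did not overlap, and the log2 fold change was −0.10 (SE 0.025, edgeR adjusted p = 0.00083). KRT18 (chr12:52948871-52952906), its type I partner, was 175.1, 180.3, 167.4 and 166.0 FPKM in ethanol against 177.9, 172.9, 170.2 and 180.2 FPKM in O/A. These overlapped, and the log2 fold change was 0.07 (SE 0.027, edgeR adjusted p = 0.0244). The adjusted p of KRT18 was 0.51 by both limma fits, 0.0643 at a mean of 5 FPKM or more and 0.0577 with no filter, and 0.0572 to 0.0974 without ethanol replicate 3, ethanol replicate 4 or O/A replicate 4. Under quantile normalization KRT8 was at −0.23 and KRT18 reversed to −0.06.

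KRT19 (chr17:41523617-41528308), the type I keratin that lacks most of the tail domain, was close to absent. Its counts were 8, 11, 7 and 14 in ethanol and 9, 10, 7 and 6 in O/A, or 0.23 ± 0.059 and 0.19 ± 0.044 FPKM (SD, n = 4 each). The conditions overlapped, and KRT19 was too low to be tested. Simple keratins are also made by Merkel cells, so markers of that cell type were examined. Of 5 such markers ISL1 alone had a mean of at least 1 FPKM (1.54 in ethanol and 3.01 in O/A, log2 fold change 1.01, edgeR adjusted p = 6.37e-11), while ATOH1, SOX2, CHGA and PIEZO2 had at most 5 counts in any library. The sum over the 5 markers was 1.45 to 1.71 FPKM in ethanol against 2.60 to 3.35 FPKM in O/A. KRT20, a further keratin of Merkel cells, had 0 or 1 count per library. The part of ISL1 in the simple keratin values was not tested.

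Over all keratins of the set, 9 of 10 could be tested, and 3 of the 9 were called (33.3%, beside 34.7% of all tested genes), 1 of them upregulated and 2 downregulated. With the adjusted p alone 8 of 9 passed, beside 53.7% of all tested genes, with 2 higher and 6 lower in O/A. KRT14 and KRT18 are the least certain of the 8, since each lost this under several alternatives, and KRT18 also reversed under quantile normalization. KRT15 lost it in fewer, among them the fits without ethanol replicate 4 or O/A replicate 3. KRT6A lost it under quantile normalization. The tested keratins had 1328 to 121292 counts per library, and a log2 fold change as small as 0.07 (KRT18) passed. The background also holds genes near 10 counts, so the 2 shares are not matched for abundance. The scaled values of the conditions did not overlap in 6 of 9, beside 47.6% of all tested genes. The median log2 fold change was −0.10, while the median over all tested genes was −0.000396. The called share of the keratins is therefore near the background of this comparison.

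**Figure D1:**
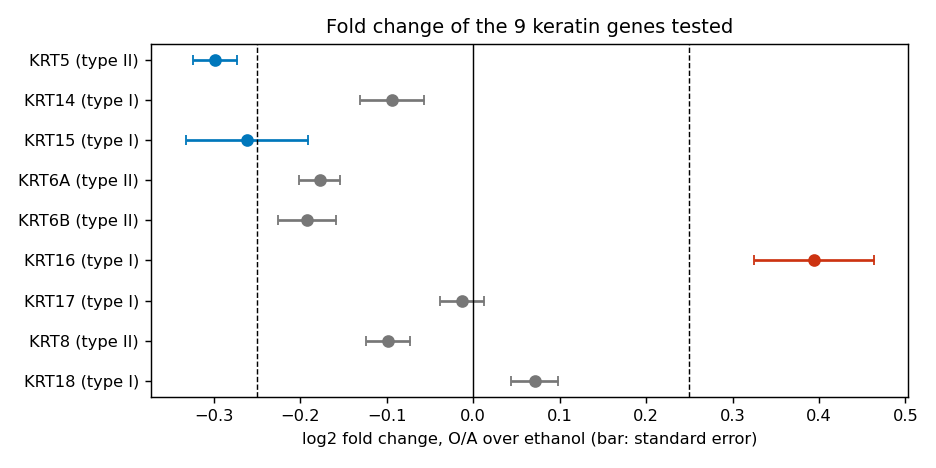
log2 fold change (O/A over ethanol, bars are the standard error from edgeR) of the 9 keratin genes that were tested, with dashed lines at the threshold of 0.25 in either direction. KRT16 is the 1 gene past the upper line at 0.39, KRT5 (−0.30) and KRT15 (−0.26) lie past the lower line, and 6 genes lie between the lines.

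Summed over the set, the keratins took a smaller share of the counted fragments in O/A. The 10 genes held 1.86 ± 0.050% of all counts in ethanol (1.81 to 1.93%) and 1.62 ± 0.039% in O/A (1.59 to 1.68%), as mean ± SD of 4 libraries each. The basal keratins went from 0.875 ± 0.036% to 0.719 ± 0.024%, and the activation-associated keratins from 0.863 ± 0.016% to 0.782 ± 0.018%. The simple keratins were at 0.126 ± 0.0037% and 0.120 ± 0.0028%, where the lowest ethanol library (0.122%) lay below the highest O/A library (0.123%). Split by chain type, the 4 type II genes held 1.11 to 1.16% in ethanol and 0.913 to 0.957% in O/A, which did not overlap. The 6 type I genes held 0.706 to 0.771% and 0.673 to 0.719%, which did. Of the summed FPKM of the 10 keratins, KRT5 made up 24.7% in ethanol and 22.1% in O/A, KRT17 made up 22.3% and 24.4%, and KRT16 made up 0.558% and 0.807%. These shares are a description and were not tested. They use raw library totals, without TMM scaling. On that scale the median log2 fold change over all tested genes was −0.0428 (limma on log2(FPKM + 0.1)), beside −0.000396 with TMM scaling.

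Because the chains assemble in pairs, the ratio of the type II to the type I count was compared within each library for 7 pairs. The counts are not corrected for length, so the size of a ratio is not a proportion of transcripts or chains. Each ratio was tested by a two-sided exact permutation test of the 4 against 4 log2 ratios, in which the smallest possible p is 0.0286, and the p-values were adjusted over the 7 pairs. The ratio of KRT6A to KRT16 was 55.4 ± 3.69 in ethanol and 37.4 ± 3.54 in O/A, a log2 difference of −0.57 (SE 0.082, exact permutation p = 0.0286, adjusted p = 0.04). For KRT6B to KRT16 it was 3.16 ± 0.183 and 2.10 ± 0.069, a log2 difference of −0.59 (SE 0.048, exact permutation p = 0.0286, adjusted p = 0.04). KRT16 thus rose relative to both of its type II partners, with every O/A ratio below every ethanol ratio.

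In the pairs of abundant keratins the ratios moved less and in the same direction. The ratio of KRT5 to KRT14 was 2.47 ± 0.095 in ethanol and 2.14 ± 0.022 in O/A (log2 difference −0.21, SE 0.029, exact permutation p = 0.0286, adjusted p = 0.04). For KRT6A to KRT17 it was 1.14 ± 0.022 and 1.02 ± 0.034 (log2 difference −0.16, SE 0.028), and for KRT8 to KRT18 it was 1.38 ± 0.028 and 1.22 ± 0.016 (log2 difference −0.17, SE 0.017), each with an exact permutation p of 0.0286 and an adjusted p of 0.04. In all 5 of these pairs the 4 ratios of each condition did not overlap. Ratios of other gene pairs were not examined, so no share for gene pairs in general stands beside this. Among single genes, 47.6% of those tested did not overlap. The pairs share genes and are not independent of each other. Since KRT8 and KRT18 overlap in the genome, their ratio also carries the uncertainty of the shared bases. For KRT5 to KRT15 the ratio was 13.8 ± 0.733 and 13.5 ± 0.671, a log2 difference of −0.04 (SE 0.052, exact permutation p = 0.514, adjusted p = 0.514). The ratio of KRT8 to KRT19, 1430 ± 358 and 1576 ± 376, rests on at most 14 KRT19 counts per library (log2 difference 0.14, SE 0.25, exact permutation p = 0.514, adjusted p = 0.514).

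With the mean of each condition removed, some keratins varied together from library to library. Over the 8 libraries, on log2(FPKM + 1), Pearson's r was 0.866 for KRT5 and KRT14, 0.827 for KRT5 and KRT15, 0.886 for KRT8 and KRT18, and 0.836 for KRT6B and KRT16. KRT6A followed KRT8 (0.834) and KRT18 (0.777) more closely than KRT6B (−0.09), its near copy. KRT5 was also near KRT17 (0.778) and KRT16 (0.772). KRT15 and KRT18 had an r of −0.591, and KRT5 and KRT8 of 0.0117. These values are descriptions over 8 libraries. They use FPKM without TMM scaling, so differences between libraries as a whole can enter them. Among 4129 genes with a mean of at least 10 FPKM, the gene whose pattern was most like that of KRT5 was CD24 (0.997). The nearest to KRT14 was CAPZA1 (0.981), to KRT15 S100A9 (0.981), to KRT6A UBE2B (0.98), to KRT6B FAM199X (0.973) and to KRT16 NDRG3 (0.975). For KRT17 it was ARF1 (0.973), for KRT8 CCDC85B (0.969) and for KRT18 ILK (0.97). Each of these is the highest of 4129 correlations over 8 libraries, so values this high can arise by chance. They were not tested.

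Of 45 other keratin genes, 12 could be tested, and 1 of these rose and 2 fell (25% called, beside 34.7% of all tested genes), with a median log2 fold change of −0.18. KRT10, the type I keratin of suprabasal differentiating keratinocytes, was 10.23 ± 0.527 FPKM in ethanol against 13.7 ± 0.675 FPKM in O/A (log2 fold change 0.47, SE 0.057, edgeR adjusted p = 8.44e-10). KRT1, its type II partner in the epidermis, had no counts in any library. Thus KRT10 and KRT16, both type I keratins, rose. The follicle keratin KRT75 fell by 0.75 on the log2 scale (SE 0.25, edgeR adjusted p = 0.0103) at 11 to 29 counts per library, and the hair keratin KRT31, named after its values were seen, was at −0.58 (edgeR adjusted p = 0.0205) with overlapping libraries. KRT31 lost its call without ethanol replicate 3, ethanol replicate 4 or O/A replicate 3 (−0.49 to −0.47), and under DESeq2 (−0.57, DESeq2 adjusted p = 0.0583). KRT81, also named after its values were seen, went from 49.7 to 39.3 FPKM without passing (−0.30, edgeR adjusted p = 0.0859), and it passed in 5 alternatives, among them both limma fits (−0.35 and −0.34), quantile normalization (−0.35) and the fit without O/A replicate 1 (−0.40). Of the other 33 genes of this list, 9 had no counts and 24 had at most 7 in any library.

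A further list held genes whose products join keratin filaments to junctions or organize them. Like the other lists, it was chosen with earlier results of these data known, so its called share can reflect that choice. Of 13 linker genes, all tested, 6 fell (46.2%) and 0 passed in the other direction, with a median log2 fold change of −0.22. Of all tested genes 18.9% fell, and 34.7% were called in either direction. EVPL (envoplakin, a plakin of the cornified envelope) was 7.56 ± 0.329 FPKM in ethanol against 5.13 ± 0.161 FPKM in O/A (log2 fold change −0.52, SE 0.045, edgeR adjusted p = 3.17e-14). PKP3 (plakophilin 3, a desmosomal plaque protein) was 39.9 ± 1.01 and 31.9 ± 0.762 FPKM (log2 fold change −0.28, edgeR adjusted p = 5.61e-11). Named after their values were seen, DST (−0.45), FAM83H (−0.43), FBF1 (−0.42) and EPPK1 (−0.37) were the other 4 that fell. FBF1 (0.81 FPKM in ethanol and 0.59 in O/A, with overlapping libraries) and EPPK1 (0.41 and 0.31 FPKM) were at low levels. FBF1 lost its call without ethanol replicate 3 or O/A replicate 4 and EPPK1 without O/A replicate 2, and limma on log2(FPKM + 1) called neither (−0.19 and −0.11). The abundant desmosomal genes JUP (136 and 125 FPKM, −0.08) and DSP (124 and 117 FPKM, −0.04) did not pass the threshold.

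Beside the 18.9% of all tested genes that fell and the 34.7% called in either direction stand the keratin partners and chaperones. Among these 9 genes, 1 fell (11.1%, median −0.04) and 0 passed in the other direction. That gene was SFN, the 14-3-3 sigma protein that binds keratins of activated keratinocytes, at 738 ± 10.7 FPKM in ethanol against 590 ± 12.5 FPKM in O/A (log2 fold change −0.28, SE 0.025, edgeR adjusted p = 4.29e-14). HSPA8, a constitutive HSP70 chaperone, was 477 and 516 FPKM (log2 fold change 0.16, edgeR adjusted p = 3.38e-07), short of the threshold. HSPB1, YWHAZ and HNRNPK were at −0.03, −0.04 and −0.04.

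The other intermediate filament genes included the lowest log2 fold change of any list. Of 16 such genes 9 were tested, and 1 rose and 4 fell (55.6% called, beside 34.7% of all tested genes, median −0.33). LMNB1 (lamin B1, of the nuclear lamina) was 19.4 ± 1.05 FPKM in ethanol against 7.77 ± 0.473 FPKM in O/A (log2 fold change −1.27, SE 0.048, edgeR adjusted p = 1.33e-28). BFSP1, which encodes a lens filament protein, rose at 106 to 201 counts per library (log2 fold change 0.55, edgeR adjusted p = 6.84e-06).

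Of 17 regulators of keratin genes 16 were tested, and 6 rose and 2 fell (50% called, beside 34.7% of all tested genes). Over the list the log2 fold change had a median of 0.11. CEBPB, a transcription factor of keratinocyte differentiation, was 15.1 ± 0.854 FPKM in ethanol against 63.2 ± 2.15 FPKM in O/A (log2 fold change 2.11, SE 0.043, edgeR adjusted p = 2.83e-40). THRA, a thyroid hormone receptor, fell by 0.67 on the log2 scale (SE 0.094, edgeR adjusted p = 2.83e-08). Named after their values were seen, KLF4 (1.72), KLF5 (0.91), NFE2L2 (0.89), FOSL1 (0.85) and JUNB (0.63) were the others that rose and TFAP2C (−0.39) the other that fell. TP63, the master factor of the basal epidermal lineage, was 27.7 and 25.8 FPKM (−0.05, edgeR adjusted p = 0.14).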

How the data were processed

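The data are mRNA libraries of N/TERT-1 cells, 4 per condition, and the sample labels give each condition and replicate number. The study describes them as independent experiments, which the labels do not state.

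Per the labels and the methods, the authors used HISAT2 2.0.1 for alignment to GRCh38.p13 and HTSeq 0.6.1 for counts per gene. The annotation release and strand setting are not given in the sources used here. The deposited counts are not normalized. The authors made the deposited FPKM from them, and each is within 0.005 of count over exonic size and library total. The authors' deposited DESeq2 comparison (mean level, fold change ratio, log2 fold change, its error, statistic, p-value) was not used.

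The count test was edgeR 4.0.16 (R 4.3.3), using TMM factors and a quasi-likelihood fit in robust mode. It covered the 14893 genes that reached 10 counts in 4 or more libraries. DESeq2 1.42.0, limma 3.58.1 and other settings were alternatives. Library depth leaves genes near 10 counts, such as KRT19, imprecise. Within a condition, counts of any 2 libraries differed by more than sampling noise (chi-square per degree of freedom 1.81 to 6.19), so none is a copy. Pair ratios were tested with scipy 1.17.1.

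Coordinates are those of the deposited table and equal GENCODE v44 for the 10 genes, from which transcripts, gene types and sequences were taken. Stretches were read from the GRCh38 genome.

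The keratins and lists were chosen with earlier results of these data known. Besides the 10 keratins, the genes named are the highest and lowest called gene of each list, list genes with a mean of at least 100 FPKM, pseudogenes with at least 5% of a keratin's counts (none) and the gene most correlated with each keratin. Other names were chosen after their values were seen.

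On simulated data with 200 of 14893 genes changed, edgeR was tested at an adjusted p of at most 0.05 without the fold change threshold. It recovered 94 of 100 genes changed by 1 on the log2 scale and 71 of 100 changed by 0.5, with 10 false positives. Changes below 0.5, such as those of the keratins, were not simulated.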

Additional observations from a re-analysis of the deposited data

Results flagged for a closer look

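In 2 of 48 groups of 4 libraries, 1 library stood apart from the other 3 in the scaled level of a named gene. HNRNPK, an RNA-binding protein that interacts with keratins, was at 783.5 TMM-scaled CPM, which is a count relative to the scaled library total, in O/A replicate 1, and at 757.0 to 760.9 in the other O/A libraries. YWHAZ, a 14-3-3 protein, was at 1977 TMM-scaled CPM in O/A replicate 1, and at 1903 to 1915 in the others. Both values come from the same library. About 2.4 groups would be flagged by chance among 48, and no keratin was among them.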

How the results depend on the processing

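Of 168 values of single keratins under the alternatives, 156 kept their direction and their side of the thresholds. KRT17 reversed to 0.00091 among protein-coding genes alone, and KRT18 to −0.0596 under quantile normalization. KRT6C reversed to −0.0026 and −0.0064 by limma on log2(FPKM + 0.1) and log2(FPKM + 1). With each library left out, the values that changed sign ranged from −0.0334 to 0.0111 for KRT17 (above 0 without ethanol replicate 3 or O/A replicate 2), from −0.0711 to 0.105 for KRT7 (below 0 without replicate 2 of either condition), from −0.104 to 0.188 for KRT6C (below 0 without ethanol replicate 3 or O/A replicate 4), from −0.0605 to 0.0200 for DSP (above 0 without ethanol replicate 4) and from −0.0584 to 0.0120 for HSPB1 (above 0 without ethanol replicate 3). The cause was not tested.

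The 5165 called genes were 2183 when a mean of 5 FPKM was required, where fewer genes are tested, were 7999 without the fold change threshold, and 797 with an absolute log2 fold change above 1. Without the threshold 8 of 9 keratins of the set, 10 of 13 linkers and 4 of 9 partners passed, beside 53.7% of all tested genes. So did 4 of 12 other keratins, 6 of 9 other filament genes and 12 of 16 regulators. Above 1 the counts were 0 for the set, 0 for other keratins, linkers and partners, 1 for other filament genes (LMNB1) and 2 for regulators. Other keratins gave 5 calls of 12 tested by limma on log2(FPKM + 0.1), beside 5124 of 14893 genes. At a mean of 5 FPKM or more they gave 1 of 5 and other filament genes 2 of 4, beside 2183 of 6797 genes. Leaving out each library gave 4945 to 5071 calls in all, 2 to 3 in the set, 2 to 5 among other keratins, 5 to 6 linkers, 1 to 2 partners, 5 other filament genes and 8 to 9 regulators. The log2 ratio differences ranged from −0.23 to −0.19 for KRT5/KRT14, −0.067 to −0.0042 for KRT5/KRT15, −0.63 to −0.53 for KRT6A/KRT16, −0.61 to −0.55 for KRT6B/KRT16, −0.18 to −0.14 for KRT6A/KRT17, −0.18 to −0.16 for KRT8/KRT18 and 0.010 to 0.26 for KRT8/KRT19. KRT8/KRT19 reversed to −0.093 on log2(FPKM + 1).

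Same-numbered libraries did not deviate together over the genes as a whole (correlations −0.0362 to 0.0704). This cannot exclude that they were handled together. The replicate block gave 5160 calls, and KRT15 missed the threshold (−0.26, edgeR adjusted p = 0.082). With the block the edgeR adjusted p was lower for KRT14 (0.0056), KRT6B (1.11e-07), KRT16 (3.47e-11), KRT17 (0.691) and KRT18 (0.0184). It was higher for KRT5 (6.46e-13), KRT6A (4.06e-08) and KRT8 (0.000952). For the ratios the block allows no exact sign-flip p under 0.125, which KRT5/KRT14 (−0.21), KRT6A/KRT16 (−0.57), KRT6B/KRT16 (−0.59), KRT6A/KRT17 (−0.16) and KRT8/KRT18 (−0.17) all reached.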
